A study of Rattus norvegicus with 2 samples.

Results

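The serpins are a family of protease inhibitors and related proteins, and the 46 rat genes on the array whose symbols start with Serpin were taken as its members, out of 22093 genes that at least 1 probe set names alone. Their levels were compared between neural stem cells (NSCs) co-cultured for 14 days with ectodermal mesenchymal stem cells (EMSCs) and NSCs mono-cultured for 14 days. All NSCs came from whole brains of SD rat embryos at day 13.5 and had formed neurospheres for 10 days. In co-culture, neurospheres were seeded onto EMSCs isolated from rats that carry green fluorescent protein, in medium with serum, and the NSCs were recovered by fluorescence-activated sorting. The labels give no sort purity, no pooling of animals, and no separate medium for the mono-cultured cells. Each condition had 1 whole-transcript array, so the conditions cannot be tested against each other and none of the differences below is backed by replicates. Levels are log2 values after robust multi-array averaging (RMA), and differences were made by subtracting the mono-cultured from the co-cultured level, so that 1 on this scale is a 2-fold difference.

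Most serpins trap a serine protease by offering it an exposed loop. When the protease cuts the loop, the serpin folds over and holds the enzyme in a complex that receptors such as Lrp1 then clear. Some members inhibit cysteine proteases, and some have lost inhibition and serve as hormone carriers, chaperones or signalling proteins. Clade letters A to I name the branches of the family. In brain, serpins hold back tissue plasminogen activator, thrombin and the first proteases of complement.

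Of the 46 members, 9 reached the median level of all genes, 4.97, on 1 array or both and are called the brighter members below. The same limit was reached by 53.6% of all genes and by 19.6% of the serpins. Among the brighter members, 4 were higher in co-culture by 2-fold or more (Serpinf1, Serpine2, Serpinh1 and Serpinb9), 2 were lower by as much (Serpinb1a and Serpina3a), and 3 lay between (Serpinb6a, Serpina11 and Serping1). The background over all 11849 genes that reached the limit was 5.04% higher and 5.54% lower by 2-fold or more. Of the 9, 7 had a difference above 0, as did 42.3% of all genes at this brightness. The median difference of the 9 members was 0.98, against -0.06 for all genes at this brightness. Over all 46 members the median was 0.18, and over the 9 it was 0.00 once every lower level was set to 6.64, a bound taken from the negative control probes. With the limit at the 75th percentile of gene levels the median was 1.47, over 5 members. Differences of 399 positive control probe sets between the arrays had a median of -0.16. Their central 95% ran from -1.15 to 0.61, a range that can hold differences between the cultures as well as noise. Serpinf1, Serpine2, Serpinh1, Serpinb9 and Serpinb6a lay above this range, Serpinb1a and Serpina3a below it, and Serping1 and Serpina11 inside it. The share of all genes outside this range was not counted, so these positions only describe the members. Serpinb9, Serpinb6a and Serpina3a stayed below 6.64 on both arrays. Differences of the 1153 negative control probe sets, which are dimmer, had an SD of 0.65. Only 6 of the 9 reached 4.97 on both arrays. Serpinb9, Serpina11 and Serpina3a passed through their higher array alone, and genes that pass in this way tend to differ, so the counts and the median describe these 9 genes and no more. On the arrays, 5 members exceeded 6.64, the 95th percentile of the negative control probe sets: Serpinf1, Serpine2, Serpinh1, Serping1 and Serpinb1a. Of these 5, 3 were higher and 1 was lower by 2-fold or more, beside 7.42% higher and 7.28% lower among the 4959 genes that exceeded 6.64 on 1 array or both.

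**Figure D1:**
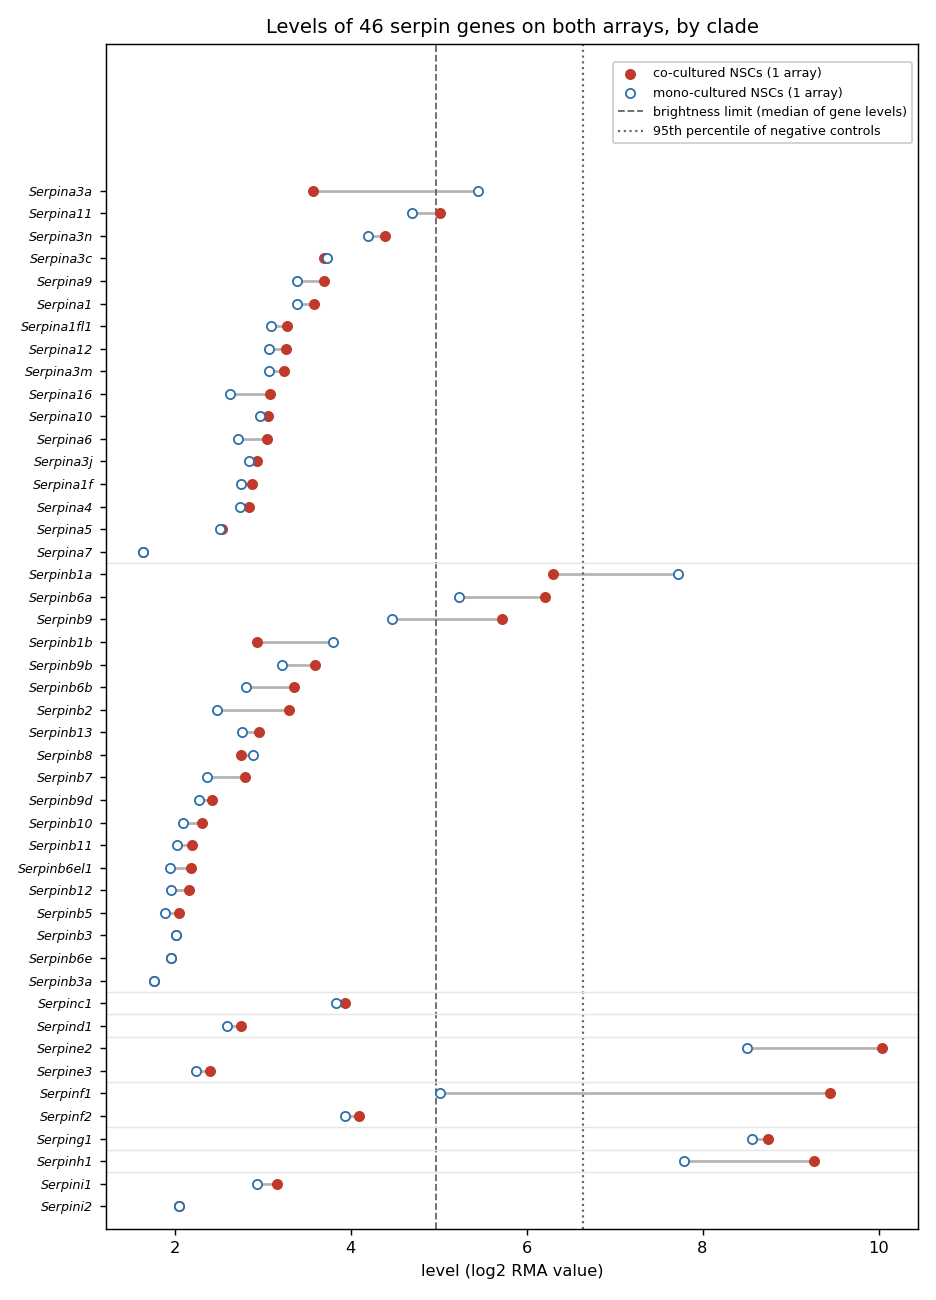
Level (log2 RMA value) of each of the 46 serpin genes, ordered by clade, with a filled point for the co-cultured and an open point for the mono-cultured array. The dashed line marks the median of all gene levels (4.97) and the dotted line the 95th percentile of the negative controls (6.64). Most members lie left of both lines, and Serpinf1 has the widest gap.

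Some cell type markers differed between the arrays, and all serpin differences stand beside these values. The background over all genes at this brightness was 5.04% higher and 5.54% lower by 2-fold or more. Of 18 mesenchymal markers, the class of the EMSC layer, 14 were higher by 2-fold or more and 2 lower by as much in co-culture. The 2 lower were Eng at -2.02 and Nt5e at -2.00. The mean level of the 18 was 8.71 in co-cultured and 6.13 in mono-cultured NSCs. Of 15 microglia and macrophage markers, 0 were higher by 2-fold or more and 14 were lower by as much, with mean levels of 4.68 in co-culture against 8.44 in mono-culture. Of 9 astrocyte markers at this brightness, 1 was higher by 2-fold or more and 7 lower by as much. No neuron, oligodendrocyte lineage or endothelial marker at this brightness was higher by 2-fold. Of these, 2 of 6, 1 of 9 and 1 of 3 were lower by as much. Among 7 neural stem cell markers at this brightness 1 was higher and 1 lower by 2-fold or more, Hes1 at 2.60 and Fabp7 at -1.95. Pax6 and Prom1, also measured, stayed below 4.97 on both arrays. The 6.64 bound was passed by 5 of the 9 measured markers on the co-cultured array and by 4 on the mono-cultured array. Sox2 and Nes were among them on both arrays. The part of these markers in the serpin differences was not tested, and in bulk RNA fewer cells of a type and less RNA per cell cannot be told apart. On the co-cultured array 14 of the 18 mesenchymal markers exceeded 6.64, and on the mono-cultured array 7 did. Of the 15 microglia and macrophage markers, 1 exceeded it in co-culture, against 12 in mono-culture.

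The widest difference in the family was in Serpinf1, which codes for pigment epithelium-derived factor (PEDF), a secreted serpin without inhibitory activity that limits vessel growth, supports neurons and binds collagen. Serpinf1 had a level of 9.45 in co-cultured NSCs, against 5.02 in mono-cultured NSCs, a difference of 4.43 or 21.6-fold. The co-cultured level lay well above the negative controls, and the mono-cultured level lay inside their range. With the mono-cultured level raised to 6.64 the difference was 2.81. The adjacent gene Serpinf2, which codes for the plasmin inhibitor α2-antiplasmin, was dim, with levels of 4.10 in co-culture against 3.93 in mono-culture. Smyd4, the neighbour on the other side, was dim too, with levels of 4.38 in co-culture against 4.59 in mono-culture. Both neighbours lay inside the range of the negative controls, so their levels cannot show whether they shared the difference.

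Of 6 genes for proteins described as PEDF receptors or partners, 5 were bright enough and 0 passed 2-fold, beside 10.6% of all genes at this brightness, with a median difference of -0.22. The lipase Pnpla2 had levels of 7.02 in co-culture, against 7.50 in mono-culture. The Wnt co-receptor Lrp6 had levels of 7.93 and 6.99 in the same order, and the membrane protein Plxdc2 had 7.92 and 7.40. The difference of Lrp6, 0.93, lay above the range of the positive controls.

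Serpinh1 codes for Hsp47, a chaperone of the endoplasmic reticulum that binds folded procollagen, and it too has no inhibitory activity. Its level was 9.26 in co-cultured NSCs, against 7.79 in mono-cultured NSCs, a difference of 1.47 or 2.77-fold, with both levels above the negative controls. The genes beside it, Map6 and Gdpd5, differed by 0.61 and 0.42. Of 21 procollagen chains and folding enzymes measured, 8 were higher by 2-fold or more, 0 were lower by as much and 13 lay between. Their median was 0.77, and the background was 5.04% higher and 5.54% lower. The chains Col1a1, Col1a2 and Col3a1 led with differences of 4.75, 4.50 and 3.43, and these 3 genes also stand on the mesenchymal marker list. Among the enzymes, the prolyl hydroxylase P4ha3 differed by 2.55 and the lysyl hydroxylase Plod2 by 1.62. P4hb, a protein disulfide isomerase, had levels of 9.49 in co-culture, against 9.66 in mono-culture, and Ppib had 7.71 and 7.83 in the same order.

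Serpine2 codes for protease nexin-1, also called glia-derived nexin, a secreted inhibitor of thrombin, urokinase and tissue plasminogen activator. Its level was 10.03 in co-cultured NSCs, against 8.50 in mono-cultured NSCs, a difference of 1.53 or 2.89-fold. Both levels stood clear of the negative controls, and the genes on either side, Mrpl44 and Fam124b, were below 4.97 on both arrays. The target proteases were closer between the arrays. Tissue plasminogen activator, Plat, had a level of 8.88 in the co-cultured and 8.33 in the mono-cultured NSCs. Urokinase, Plau, had levels of 6.46 in co-culture, against 6.17 in mono-culture, and its receptor Plaur had 6.21 and 5.92 in the same order. Of 7 bright genes of plasminogen activation 0 passed 2-fold, beside 10.6% of all genes at this brightness, with a median of 0.29. Plasminogen itself, Plg, was dim, with levels of 4.12 in co-culture against 3.92 in mono-culture, as was the matrix protein vitronectin, Vtn, at 3.83 and 3.46.

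Of 9 bright genes of coagulation and thrombin signalling, 3 were higher by 2-fold or more and 2 lower by as much. The background was 5.04% higher and 5.54% lower, and the median of the 9 was 0.06. The thrombin receptor F2r had a level of 8.28 in the co-cultured and 7.93 in the mono-cultured NSCs, while thrombin's own gene, F2, was below the limit at 4.16 and 3.86. Factor V, F5, had levels of 5.61 in co-culture against 3.40 in mono-culture. Factor X, F10, had 4.01 in co-culture against 7.12 in mono-culture, the widest difference of the list at -3.11. The protease-activated receptor F2rl1 differed by -1.31 and the thrombin cofactor Thbd by 1.23.

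Serping1 codes for C1 inhibitor, which blocks the complement proteases C1r and C1s. Serping1 had a level of 8.74 in co-cultured NSCs, against 8.56 in mono-cultured NSCs, a difference of 0.18. The genes of these targets, C1r and C1s, differed more. C1s had levels of 8.28 in co-culture, against 5.82 in mono-culture, and C1r had 7.97 against 6.12. Masp1, a protease of the lectin pathway, differed by 0.98. Cfd, complement factor D, went the other way, with levels of 5.79 in co-culture against 7.26 in mono-culture. Of the 4 bright complement proteases, 2 were thus higher by 2-fold or more and 1 lower by as much. The background was 5.04% higher and 5.54% lower.

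The clade B serpins stay mostly inside cells, and 3 of their 19 members were bright. Serpinb1a, an inhibitor of neutrophil elastase, cathepsin G and proteinase-3, had a level of 6.30 in co-cultured NSCs, against 7.72 in mono-cultured NSCs, a difference of -1.41, with the co-cultured level below 6.64. Its paralog Serpinb1b, below 4.97 on both arrays, had levels of 2.94 in co-culture against 3.80 in mono-culture, which was the lowest difference of any dim member at -0.87. Serpinb9, whose human counterpart inhibits granzyme B, had a level of 5.72 in the co-cultured and 4.47 in the mono-cultured NSCs, a difference of 1.24 with both levels inside the range of the negative controls. With levels below 4.97 raised to it the difference was 0.75, short of 2-fold. Serpinb6a, a cytosolic inhibitor of cathepsin G in mouse, had levels of 6.20 in co-culture, against 5.23 in mono-culture, and, at 0.98, stayed just short of 2-fold. After quantile normalization the difference of Serpinb6a was 1.03, past 2-fold. Members of the Serpinb1, Serpinb6 and Serpinb9 groups are close copies of each other, so probes may bind transcripts of more than their own gene, and these assignments are uncertain, as are those among the Serpina3 genes described next.

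The proteases that clade B serpins meet in leukocytes were dim. Of 13 leukocyte serine proteases measured, 1 reached 4.97, the mast cell tryptase Tpsb2, with levels of 5.23 in co-culture against 4.74 in mono-culture. The 9 cysteine proteases measured were all bright. Of these, 1 was higher by 2-fold or more, 3 were lower by as much and 5 lay between, with a median of -0.63. The background was 5.04% higher and 5.54% lower. Cathepsin S, Ctss, had levels of 4.44 in co-culture against 9.31 in mono-culture. Ctsz differed by -3.67 and Casp1, the caspase of inflammasomes, by -2.90. Cathepsin K, Ctsk, known from osteoclasts and fibroblasts, was the 1 higher gene, at 6.84 in co-culture against 4.68 in mono-culture. The broadly expressed cathepsins Ctsl and Ctsb differed by 0.15 and -0.85. Of the 15 microglia and macrophage markers, 14 were lower by 2-fold or more, with Csf1r at -5.77, and the other, Tmem119, differed by 0.21. The part of these markers in the differences of Ctss, Ctsz, Casp1 and Serpinb1a was not tested.

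**Figure D2:**
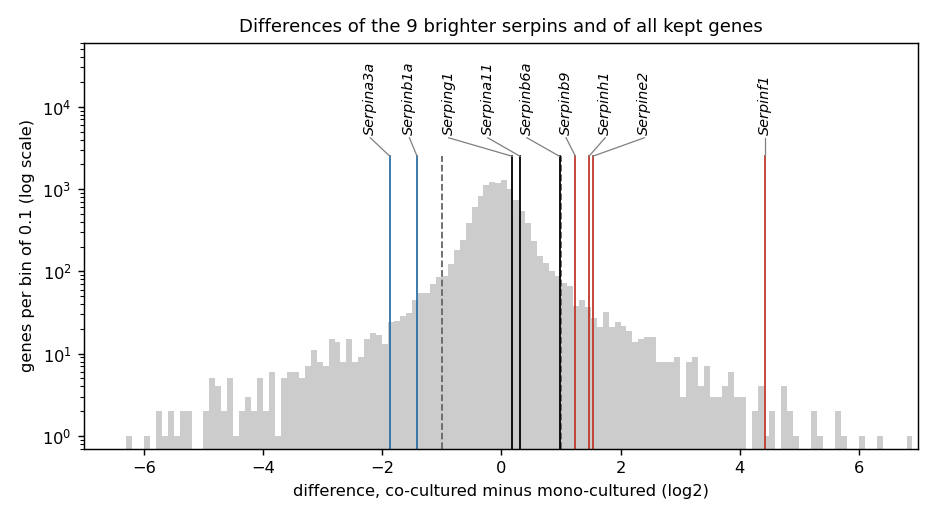
Histogram of the difference (co-cultured minus mono-cultured, log2) for the 11849 genes at or above the brightness limit, with a logarithmic count axis, and a vertical line for each of the 9 brighter serpins. Dashed lines mark 2-fold. Serpinf1 stands in the upper tail at 4.43, and Serpinb1a and Serpina3a lie below -1.

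In clade A, which holds the liver-derived serpins of plasma, 2 of 17 members were bright. Serpina3a had a level of 3.58 in co-cultured NSCs, against 5.45 in mono-cultured NSCs, a difference of -1.87. Both levels lay inside the range of the negative controls, and with levels below 4.97 raised to it the difference was -0.48. The genes next to it, Serpina3j and Serpina3c, differed by 0.09 and -0.04. Serpina11 had levels of 5.01 in co-culture against 4.70 in mono-culture. Serpina3n, a known gene of reactive astrocytes, rests on 2 probe sets that disagree in brightness. The brighter had a level of 6.33 in the co-cultured and 6.05 in the mono-cultured NSCs, the dimmer 2.45 and 2.35, and their mean lay below the limit. A further probe set shared with Serpina3l had levels of 4.46 in co-culture, against 4.37 in mono-culture, and was not used for either gene. All of these probe sets differed by less than 0.3 between the arrays, while the astrocyte filament gene Gfap had levels of 6.00 in co-culture against 8.96 in mono-culture.

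The other 37 members lay below 4.97 on both arrays, with levels between 1.64 and 4.39 in co-culture and between 1.64 and 4.20 in mono-culture. None of these 37 differed by 2-fold, and 34 differed by less than 0.5. The 3 wider ones were Serpinb1b, Serpinb6b at 0.54, and Serpinb2, which codes for the plasminogen activator inhibitor PAI-2, at 0.82 with levels of 3.30 in co-culture against 2.48 in mono-culture. Of their differences 29 were positive and 3 negative, that is 78.4% positive, beside 55.7% of all dim genes. The dim members include Serpini1, which codes for neuroserpin, the inhibitor of tissue plasminogen activator in neurons, with levels of 3.16 in co-culture against 2.94 in mono-culture. They also include the plasma inhibitors Serpinc1 (antithrombin), Serpind1 (heparin cofactor II), Serpina1 (α1-antitrypsin), Serpina5 (protein C inhibitor) and Serpina10, and the hormone carriers Serpina6 and Serpina7. Their differences ran from 0.00 for Serpina7 to 0.33 for Serpina6. Serpina7, Serpinb3, Serpinb3a, Serpinb6e and Serpini2 had the same value on both arrays, as did 6.40% of all genes. The rest of the dim members are Serpina1f, Serpina1fl1, Serpina3c, Serpina3j, Serpina3m, Serpina4, Serpina9, Serpina12, Serpina16, Serpinb5, Serpinb6el1, Serpinb7, Serpinb8, Serpinb9b, Serpinb9d, Serpinb10, Serpinb11, Serpinb12, Serpinb13, Serpine3 and Serpinf2, with differences from -0.13 for Serpinb8 to 0.46 for Serpina16. Among these, Serpina4 codes for kallistatin, Serpina12 for vaspin, an adipokine, and Serpinb5 for maspin, an epithelial serpin.

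Most members fall into gene clusters in the rat genome, and the share of bright members differed between these. By the RefSeq gene table, 16 members lie on chromosome 6 (clade A), of which 2 were bright, and 9 lie on chromosome 17 (clade B), of which 3 were bright. All 11 members on chromosome 13 were dim, with a highest level of 3.94, that of Serpinc1. The single members on chromosomes 1, 3 and 9, Serpinh1, Serping1 and Serpine2, were all bright. Those on chromosomes 11, 15 and X, Serpind1, Serpine3 and Serpina7, were all dim. On chromosome 17, Serpinb9 and Serpinb1a, with Serpinb6b between them, differed in opposite directions.

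Promoters are shown for the 3 bright members that were higher with the widest differences and for Serpinb1a, the lower member that exceeded 6.64, so that genes of one family with different differences can be read side by side. Each run is the 250 bases before the gene start in the RefSeq promoter table for GRCr8, which held 38 of the 46 members. Capitals mark matches to 5 searched motifs. The Serpinf1 run is chr10:60760899-60761148, minus strand, the Serpine2 run chr9:88637203-88637452, minus strand, the Serpinh1 run chr1:163062977-163063226, minus strand, and the Serpinb1a run chr17:31799196-31799445, plus strand.
Serpinf1: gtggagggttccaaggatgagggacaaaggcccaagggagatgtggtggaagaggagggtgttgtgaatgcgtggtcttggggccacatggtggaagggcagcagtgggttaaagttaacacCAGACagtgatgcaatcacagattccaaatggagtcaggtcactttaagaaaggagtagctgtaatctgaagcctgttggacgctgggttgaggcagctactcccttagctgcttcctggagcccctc
Serpine2: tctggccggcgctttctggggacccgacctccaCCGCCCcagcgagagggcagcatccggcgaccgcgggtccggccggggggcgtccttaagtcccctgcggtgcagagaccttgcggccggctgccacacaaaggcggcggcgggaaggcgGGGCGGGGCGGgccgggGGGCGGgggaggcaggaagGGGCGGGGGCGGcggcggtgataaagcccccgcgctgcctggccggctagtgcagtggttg
Serpinh1: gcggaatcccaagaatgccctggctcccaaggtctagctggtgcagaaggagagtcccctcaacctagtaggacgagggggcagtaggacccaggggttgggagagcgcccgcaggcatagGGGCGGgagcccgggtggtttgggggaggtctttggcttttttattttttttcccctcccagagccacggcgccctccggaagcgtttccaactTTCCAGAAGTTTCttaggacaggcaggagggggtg
Serpinb1a: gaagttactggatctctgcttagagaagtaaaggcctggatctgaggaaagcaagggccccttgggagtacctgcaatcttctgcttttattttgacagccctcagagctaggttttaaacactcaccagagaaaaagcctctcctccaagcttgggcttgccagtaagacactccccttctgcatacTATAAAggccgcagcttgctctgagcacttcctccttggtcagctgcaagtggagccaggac

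The motifs were searched on both strands, and matches of different motifs did not overlap in these 4 runs. The TATA box (TATAAA) was found in 12.9% of all 33469 promoters in the table, the GC box (GGGCGG) in 30.5%, a pair of facing heat shock half-sites (TTCNNGAA or GAANNTTC) in 13.5%, the AP-1 site (TGANTCA) in 6.34% and the SMAD box (CAGAC) in 42.9%. The Serpinh1 run held 2 overlapping heat shock pairs from base -35 to base -23, counted back from the start, and 1 GC box. Hsp47 is known as a heat shock gene. The Serpine2 run was 76.8% G and C, against a median of 51.2% over all promoters, and held 6 GC boxes. The Serpinf1 run held 1 SMAD box and no other match. The Serpinb1a run held 1 TATA box, from base -62 to base -57. None of the 5 motifs was found in all 3 of the runs of higher members.

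Of 23 bright inhibitors outside the serpin family, 4 were higher by 2-fold or more and 1 lower by as much, with a median of 0.25. Slpi, a secreted inhibitor of neutrophil elastase, had levels of 10.21 in co-culture, against 4.86 in mono-culture, and Pi15 had 5.94 and 2.61 in the same order. Reck, a membrane inhibitor of matrix metalloproteinases, differed by 1.76 and the proteoglycan Spock1 by 1.75. Among 11 other bright serine proteases, 5 were higher by 2-fold or more and 1 lower by as much, led by Fap at 2.91, Htra1 at 1.70 and Htra3 at 1.42. Fap is also on the mesenchymal marker list. Of 7 bright clearance receptors 0 passed 2-fold, beside 10.6% of all genes at this brightness. Lrp1, the main receptor for serpin complexes, had levels of 9.30 in co-culture against 8.89 in mono-culture, Sdc1 differed by 0.92 and Sorl1 by -0.97. Among 18 genes of the TGF-beta response, a pathway known to raise matrix genes, 8 were higher by 2-fold or more and 0 lower, with a median of 0.64, led by Thbs1 at 5.66, Tgfbi at 4.85 and Ccn2 at 3.47. Tagln, another of the 8, is also on the mesenchymal marker list. The 11 lists together hold targets, receptors and partners, and also the other inhibitors and the TGF-beta genes. Of their 115 bright genes, 31 (27.0%) were higher and 8 (6.96%) lower by 2-fold or more, beside the background of 5.04% and 5.54%. The lists were chosen with earlier results of these data known, so these shares describe the listed genes only.

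**Figure D3:**
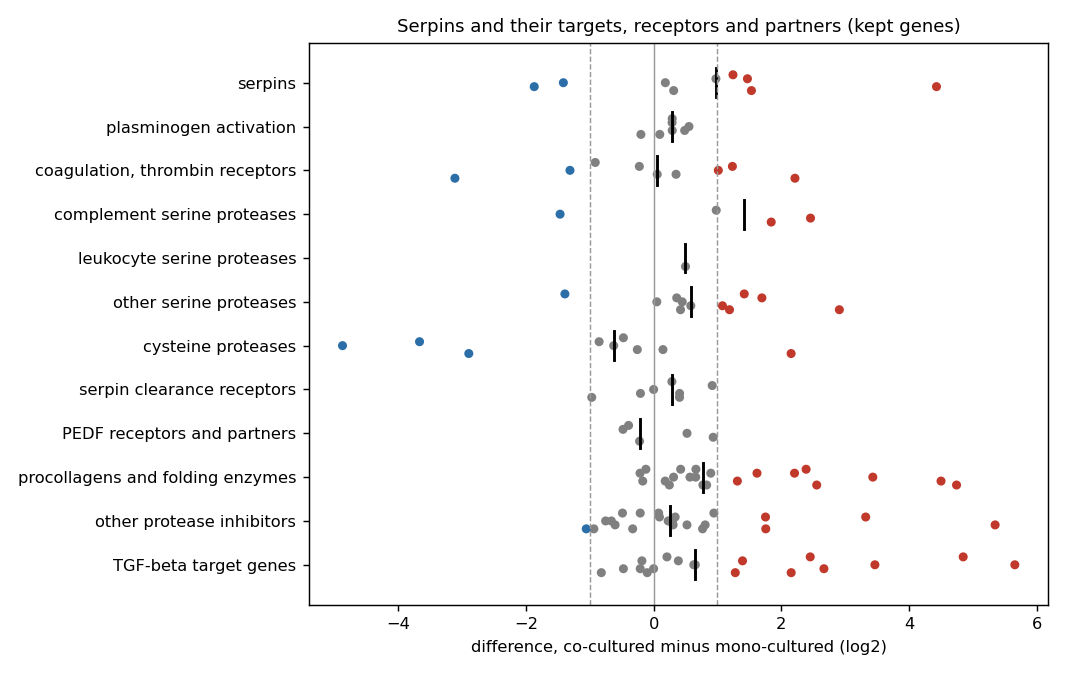
Difference (co-cultured minus mono-cultured, log2) of each gene at or above the brightness limit, 1 row per list, with the median as a black bar and dashed lines at 2-fold. Red points were higher and blue points lower by 2-fold or more. Plasminogen activation, clearance receptors and PEDF receptors stay between the dashed lines, while procollagens reach 4.75 and cathepsins -4.87.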

How the data were processed

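RNA of 1 co-cultured and 1 mono-cultured sample was hybridised to a whole-transcript array of its own, as the labels' protocols state. The authors deposited log2 levels, made by RMA according to the submitters' processing notes. Which software ran RMA, and with which annotation, is not given in the sources used here. All values lie between 0.33 and 12.74, which fits a log2 scale. RMA equalizes the arrays' distributions, so it hides a change shared by most genes. Of 68842 transcript clusters, the platform's annotation gave 1 symbol to 23446, several to 505, which were left out, and none to 44891. Probe sets of a gene were averaged, and 3 serpins had more than 1. By Entrez ID, all 46 serpins kept their symbol in the current RefSeq table (GRCr8). The platform build is not given, so that table was used for names and neighbours. Some genes were not analysed here. No detection call was used, and no p-value could be computed from 1 array per group, and the number of arrays limits the precision.

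Named genes are all members and, per partner list, up to 3 bright genes with the largest absolute difference, plus a fixed set. Smyd4, Map6, Gdpd5, Mrpl44, Fam124b, P4ha3, Plod2, P4hb, Ppib, Masp1, Thbd, Ctsk and Spock1 were added after their values were seen. Tagln and the markers Hes1, Fabp7, Sox2, Nes, Pax6, Prom1, Eng, Nt5e and Tmem119 were also named outside this rule. Members and lists were chosen with earlier results of these data known. Alternatives used limma 3.58.1 in R 4.3.3 and statsmodels 0.14.6, and other steps Python 3.11.15, numpy 2.4.6 and pandas 2.3.3.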

Additional observations from a re-analysis of the deposited data

How the results depend on the processing

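Serpinf1, Serpine2, Serpinh1, Serping1 and Serpinb1a kept their direction under each of 10 alternatives of scaling, filter, probe set rule and floor. Only the changes of scaling could have reversed a direction. The filters and probe set rules left these differences as they were, and a floor cannot reverse a sign. Serpine2 ran from 1.53 to 1.61 and Serpinh1 from 1.47 to 1.55, Serpinf1 from 2.81 to 4.50 and Serpinb1a from -1.41 to -1.08. No difference of a brighter serpin changed sign under the changes of scaling. Serpinb6a passed 2-fold under quantile normalization (1.03) and after the loess fit (1.04), so 5 members were higher there. With levels below 6.64 raised to it, the differences of Serpinb9, Serpinb6a, Serpina11 and Serpina3a were 0.00, 4 members had a difference above 0, and the family median was 0.00. With levels raised to 4.97, 7 members did, against 36 as deposited. The number of serpins at least 2-fold lower was 1 under both floors, under the 75th percentile filter and with both levels at 4.97, and 0 at a 4-fold threshold, where 1 was higher. Under those floors and filters 3 were higher, without Serpinb9, which differed by 0.75 with levels raised to 4.97. The median was 0.18 without a filter, 1.47 under the 75th percentile filter and 0.65 with the brightest probe set per gene. Of genes on the partner lists, 5 were lower under the 75th percentile filter and with levels raised to 4.97, and 2 with both levels at 4.97. With levels raised to 6.64, 18 were higher and 2 lower. The floors shrink differences by construction and the stricter filters test fewer genes; for the other settings the cause was not tested. No paired analysis was possible because each group has 1 array. Most serpins lie in the range of the negative controls, which limits what their levels can show. Between probe sets of the same gene that reached 4.97, the co-cultured minus mono-cultured difference varied with a pooled SD of 0.26 (478 genes).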
